A study of Gallus gallus with 4 samples.

Results

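The genes described here code for transporters that carry sugars, amino acids, lactate and related small molecules across cell membranes. They were chosen by name alone, as every probe set of the array with a single gene symbol of the solute carrier families SLC1, SLC2, SLC3, SLC5, SLC6, SLC7, SLC16, SLC36, SLC38 or SLC43. The rule found 188 probe sets for 77 genes, among 37695 chicken probe sets and 13009 named genes. It used no measured value.

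Chicken embryos of 9 somites gave the RNA, from a dissected piece around the primitive streak where future paraxial mesoderm, the source of the somites, is set aside. Eggs of both groups had 24 h at 38 °C, which brought them to Hamburger-Hamilton stage 5, and the embryos were then electroporated and cultured for 14 h. The HoxA13 group received HoxA13 under the CAGGS promoter with the reporter H2B-Venus, and the control group H2B-Venus alone, so that both carried the reporter and the electroporation. CAGGS is a strong promoter that is not restricted to a tissue, and electroporation reaches only part of the cells of the dissected piece. Each group had 2 arrays, and each array held a pool of 7 embryos.

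Cells of a growing embryo take up glucose mainly through the SLC2 family, which lets it pass down its gradient, and send lactate out with a proton through the SLC16 family. Amino acids enter by several routes. Members of SLC1, SLC6 and SLC38 couple uptake to sodium. Many SLC7 proteins, though not all, exchange one amino acid for another and need a heavy chain of the SLC3 family to reach the membrane. The mesoderm progenitors of the tail end of the embryo are known for high glucose use and lactate production, which fall as cells mature towards the somites.

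The tissue was checked against marker genes. All 7 measured markers of streak and tail bud progenitors were above background on all 4 arrays, among them TBXT, WNT3A, FGF8, CDX2 and CDX4. Of 9 markers of yolk sac and nutritive endoderm, a tissue rich in transporters, 1 was above background on all 4 arrays and 5 on none. That marker was APOA1, an apolipoprotein, at 44.1 and 39.7 on the HoxA13 arrays and 40.2 and 28.6 on the controls. The summed intensity of the 9 markers was 104 and 123 on the HoxA13 arrays and 94.4 and 66.6 on the controls. The albumin gene ALB was above background on 1 array only, while AFP, which codes for alpha-fetoprotein, was below it on all. Of 4 endoderm markers, FOXA2 alone was above background. Some markers of other tissues were apart between the groups. In the blood and endothelium list, 3 of 8 genes could be tested. HHEX fell (44.2 and 9.39 against 336 and 419, adjusted p = 0.0352, limma), while TAL1 overlapped. LMO2 was lower on both HoxA13 arrays than on both controls, at a difference of -0.72, and did not pass (adjusted p = 0.963, limma). It was above background on the controls only, through which it came to be tested. Markers that did not pass included PRRX1 of lateral mesoderm, at a difference of -1.72, MEOX1 of somites, at -1.07, and EPCAM of surface ectoderm, at -0.71. The other tested somite marker, PAX9, went the other way, at 1.07 (48.7 and 67.3 against 23.9 and 14.7), and did not pass. In presomitic mesoderm MSGN1 was lower on both HoxA13 arrays, at -0.39, while LFNG at 0.56 and DLL1 at 0.40 overlapped. TBX6, also of presomitic mesoderm, was 8.13 and 2.35 on the HoxA13 arrays and 11.0 and 1.39 on the controls. It was below background on all arrays, as were TCF15 of somites and SOX1 of the neural plate. In the neural plate SOX2 at 0.41 and SOX3 at -0.25 overlapped. PAX6, at 0.68 (30.1 and 19.9 against 8.69 and 10.3), was above background on the HoxA13 arrays only, through which it came to be tested. No tested marker of either tissue passed. On 6 of the 7 streak markers both HoxA13 arrays were above both controls, against 18.3% of all probe sets tested, and none of these passed. The part of such shifts in the transporter values was not tested. In pieces of tissue, fewer cells of a type and less RNA per cell cannot be told apart.

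Of the 77 transporter genes 26 were above background on all 4 arrays by at least 1 probe set. Background was set on each array from its 687 viral probe sets, as their 99th percentile, and lay between 12.8 and 16.5. A further 20 genes were above it on 1 to 3 arrays and 31 on none. Detection on all 4 arrays was thus found for 33.8% of the transporter genes, against 54.1% of all named genes, and detection on none for 40.3% against 27.8%. These shares depend on how many probe sets a gene has, since 1 is enough to count. The 77 transporter genes had 188 probe sets and the 13009 named genes 27168, which is more per gene for the transporters. The genes found on all 4 arrays had 3.08 probe sets on average and those found on none 2. For SLC5A8 and SLC36A4, with 5 probe sets each, and SLC6A6, with 4, only 1 was above background on any array.

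**Figure D1:**
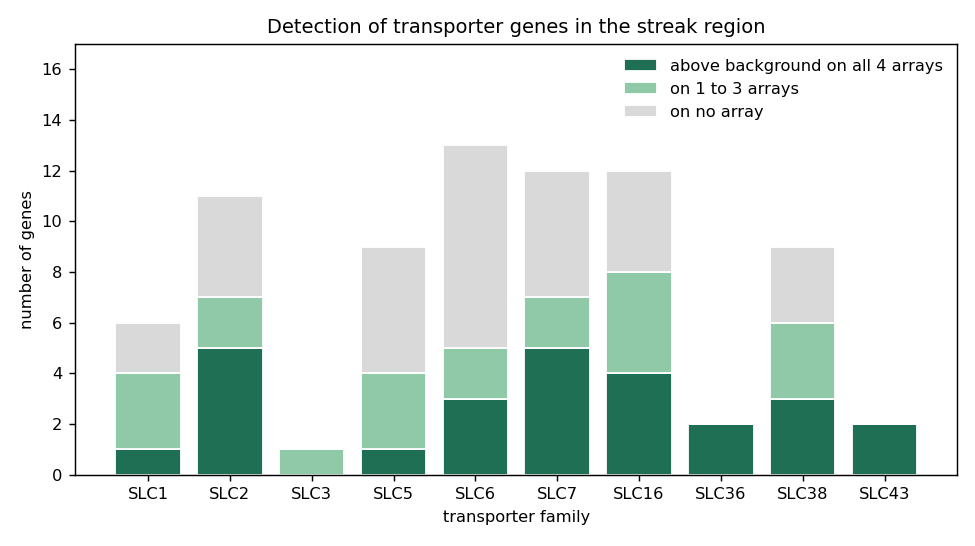
Number of transporter genes in each SLC family by the number of arrays on which at least 1 probe set of the gene exceeded background. SLC2 and SLC7 hold 5 genes each that were above background on all 4 arrays, and in SLC6 8 of 13 genes were above it on none.

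By family, both SLC36 and both SLC43 genes were above background on all 4 arrays, as were 5 of 11 SLC2 genes, 5 of 12 SLC7 genes, 4 of 12 SLC16 genes, 3 of 9 SLC38 genes and 3 of 13 SLC6 genes. In SLC1 it was 1 gene of 6 and in SLC5 1 of 9. The single SLC3 gene, SLC3A1, the heavy chain of the cystine carrier of kidney and gut, was above background on 2 arrays and hovered at that level, with 14.9 and 7.29 on the HoxA13 arrays and 13.8 and 11.7 on the controls. The other heavy chain gene, SLC3A2, and the glutamine carrier gene SLC1A5 were not analysed here.

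Genes found on none of the arrays included some that are known from mature epithelia, liver and nerve endings. Among them was SLC2A2, the glucose carrier of liver and pancreatic islets, at 4.95 and 1.43 on the HoxA13 arrays and 8.71 and 13.3 on the controls. SLC2A5, a fructose carrier, and SLC2A9, a urate carrier, were also below background throughout. Among the carriers of transmitters, the serotonin carrier gene SLC6A4 reached at most 4.87 and the noradrenaline carrier gene SLC6A2 at most 12.3. SLC6A5 and SLC6A11, which clear glycine and GABA, were not found, nor were SLC6A19 and SLC6A20 of gut and kidney. SLC7A11, the cystine and glutamate exchanger, had 4 probe sets, with a highest value of 10.4 on any array. SLC5A1, the sodium-coupled glucose carrier of gut and kidney, exceeded background on 1 array only, in a single one of its 3 probe sets, at 14.5, which is the background level of that array to the same precision.

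The remaining genes found on no array were the glutamate carrier genes SLC1A1 and SLC1A6, SLC2A12, SLC5A3, SLC5A7, SLC5A9, SLC5A10, SLC5A11, SLC6A8, SLC6A17, SLC7A9, SLC7A10, SLC7A13, SLC7A14, SLC16A5, SLC16A7, SLC16A8, SLC16A14, SLC38A4, SLC38A7 and SLC38A11. A value below background does not show that a transcript was absent, only that its probe set did not stand out from probe sets with no target in the embryo.

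HoxA13 and control arrays could be compared for 54 probe sets of 36 transporter genes, those that exceeded background on 2 or more arrays. None of the 54 passed the test in either direction (limma on log2(intensity + 16), adjusted over all 15818 chicken probe sets tested, threshold 0.05), against 13 of 15818, or 0.0822%, over all probe sets (3 higher, 0.0190%, and 10 lower, 0.0632%). At an unadjusted p under 0.05 there were 2 of 54, or 3.7%, against 5.14% of all probe sets, and the smallest adjusted p of a transporter was 0.867. With each array left out in turn the number of transporter probe sets that passed was 0 each time. Over all probe sets it was 0 higher and 9 lower without HoxA13 replicate 1, 1 and 5 without HoxA13 replicate 2, 23 and 58 without control replicate 1, and 3 and 14 without control replicate 2. The other 134 transporter probe sets were too dim to test. Of the 54, 37 were above background on all 4 arrays, and 2 were above it on both HoxA13 arrays and neither control, those of SLC5A5 and SLC38A9.

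**Figure D2:**
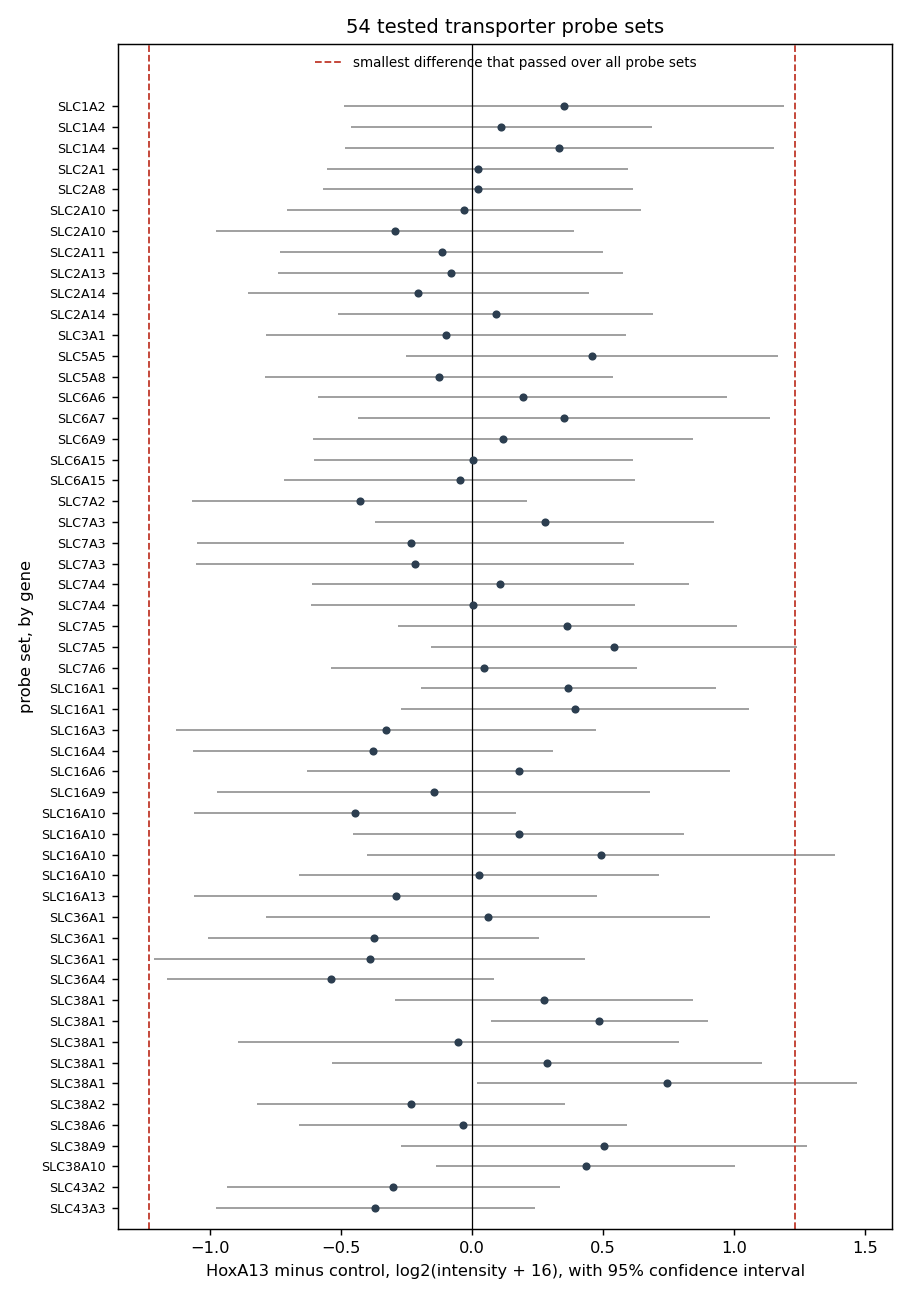
Difference of HoxA13 minus control on the log2(intensity + 16) scale for each of the 54 tested transporter probe sets (points), with its 95% confidence interval (bars). Dashed lines mark 1.23, the smallest difference that passed over all probe sets, and the transporter differences lie between -0.54 and 0.75.

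None of the transporter differences reached the size of those that passed. They ran from -0.54 to 0.75 on the log2(intensity + 16) scale, with a median of 0.022 against 0.031 over all probe sets tested. The smallest difference that passed over all probe sets was 1.23, or 2.35-fold, and the largest of a transporter was 1.68-fold. The 95% confidence intervals excluded a change of 3-fold or more for all 54 probe sets and of 2-fold or more for 32. These intervals are for the whole dissected piece, not for the electroporated cells alone. On this scale a change of a dim probe set is understated, so these limits apply to intensities well above 16. Over the 54 probe sets, the median absolute difference was 0.36 between the HoxA13 arrays and 0.37 between the controls, and 0.25 between the group means. Over all probe sets tested these values were lower, at 0.27, 0.32 and 0.20. Group means vary less than single arrays, so the value between group means cannot be set directly against the others.

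On 9 of the 54 probe sets both HoxA13 arrays were above both controls, or 16.7% against 18.3% of all probe sets tested, and on 8 both were below, or 14.8% against 14.7%. Together 17 of 54 had groups that did not overlap, against 33.0% of all. These shares were near the background. Among the 9 higher were the probe sets of SLC5A5 and SLC38A9, which came to be tested through the HoxA13 arrays only. With the replicate number as a block, 0 transporters passed against 1.01% of all probe sets, and 3 had an unadjusted p under 0.05 against 10.1%. The direction depended on which arrays were set side by side. Between the arrays numbered 1, HoxA13 was higher than control for 39 of 54 transporter probe sets, or 72.2%, with a median difference of 0.16, against 49.3% of all probe sets. Between the arrays numbered 2 it was higher for 19, or 35.2%, with a median of -0.14, against 56.6%. The 2 comparisons pointed in opposite directions for 30 of the 54 probe sets, or 55.6%, against 44.8% of all.

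**Figure D3:**
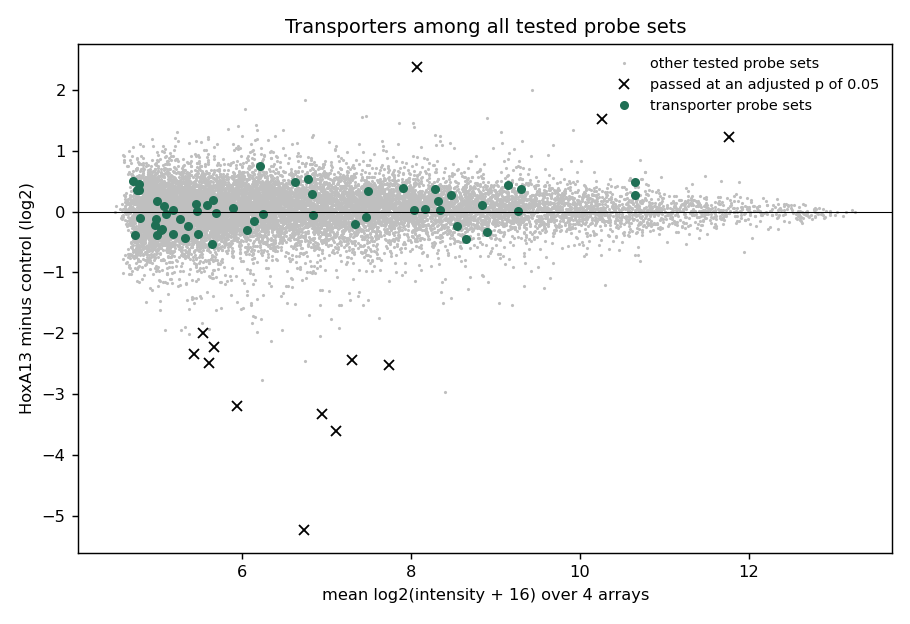
HoxA13 minus control against the mean signal, both on the log2(intensity + 16) scale, for all 15818 tested probe sets (grey), with the 54 transporter probe sets (green) and the 13 that passed (crosses). The transporter points lie within the cloud of the other probe sets, and no cross is a transporter.

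Of the facilitative glucose carriers, 5 were above background on all arrays. SLC2A1, or GLUT1, the widespread carrier of basal glucose uptake, had an intensity of 256 and 242 on the HoxA13 arrays and 246 and 244 on the controls. All 4 pools were nearly alike, and the difference was 0.022 ± 0.26 (SE, n = 2 arrays each) on the log2 scale, with a 95% confidence interval from -0.55 to 0.60. The sign of so small a difference turned with the scaling between arrays. A second glucose carrier is listed under the symbol SLC2A14, for which the RefSeq gene table gives GLUT3 and SLC2A3 as other names, the carrier with high affinity. It gave 116 and 157 on the HoxA13 arrays and 173 and 145 on the controls, which overlap, at a difference of -0.20 ± 0.29. Its second probe set gave 19.3 and 18.5 against 17.7 and 15.8, a difference of 0.091, the opposite sign.

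Other SLC2 genes found on all arrays are known from compartments inside the cell or from other cargo. SLC2A8, or GLUT8, an intracellular hexose carrier, was 355 and 272 on the HoxA13 arrays and 322 and 291 on the controls. SLC2A13, which carries myo-inositol with a proton, was 189 and 128 against 161 and 171. For both genes the control values lay inside the range of the HoxA13 values. SLC2A10, linked in humans to arterial tortuosity, was 37.6 and 32.9 against 28.3 and 45.7, with the highest and the lowest value both among the controls. Its second probe set, the SLC2 probe set with the smallest p, was 19.1 and 9.12 against 16 and 25.3, a difference of -0.29 ± 0.30 (adjusted p = 0.999, limma). SLC2A11, at 13.9 and 14.8 against 15.9 and 17.9, was close to background with both HoxA13 values below both controls, and SLC2A6 exceeded it on 1 array.

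Of the sodium-coupled SLC5 carriers, SLC5A8, which takes up short monocarboxylates, was above background on all arrays by 1 of its 5 probe sets. It gave 15.6 and 27.2 on the HoxA13 arrays and 19.4 and 29.8 on the controls. Both arrays numbered 2 were above both numbered 1, and the groups overlapped. The iodide carrier gene SLC5A5 gave 14.5 and 17.8 against 11.8 and 3.66. It was above background only on the HoxA13 arrays, which is how it came to be tested, and its difference of 0.46 ± 0.32 did not pass (adjusted p = 0.999, limma). SLC5A12 exceeded background on 1 array.

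Neither lactate carrier passed. SLC16A1, or MCT1, which moves lactate either way and serves many tissues, gave 678 and 723 on the HoxA13 arrays and 649 and 447 on the controls. Both HoxA13 pools were above both controls, with control replicate 2 apart from the other 3 arrays. The difference was 0.37 ± 0.25, with an interval from -0.19 to 0.93 (adjusted p = 0.999, limma). A second probe set had the same order of arrays except between the HoxA13 pools, with 266 and 249 against 242 and 153.

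SLC16A3, or MCT4, the low-affinity carrier of strongly glycolytic cells, was 316 and 534 on the HoxA13 arrays and 723 and 375 on the controls. The highest and lowest arrays were those numbered 1, and the difference was -0.33 ± 0.36. It rested on these arrays, being 0.035 without HoxA13 replicate 1 and 0.13 without control replicate 1. The enzyme gene LDHA, which makes lactate from pyruvate, also had its lowest value on HoxA13 replicate 1, with 640 and 2827 against 2172 and 1015.

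SLC16 genes with other cargo included SLC16A10, or TAT1, which carries aromatic amino acids. It had 4 tested probe sets that did not share a direction. The one with the highest mean was 355 and 304 on the HoxA13 arrays and 373 and 550 on the controls, both HoxA13 values below both controls, at a difference of -0.45 ± 0.27, the smallest p of the family (adjusted p = 0.999, limma). A second gave 362 and 287 against 336 and 238, with overlap, and another 132 and 77.3 against 103 and 42.7, a difference of 0.49. The probe sets disagree most on control replicate 2, which was the highest array on the first and the lowest on the other 2 just given. SLC16A9 was 54 and 48.3 against 89.1 and 36.4, with both HoxA13 values between the controls. SLC16A4, SLC16A6 and SLC16A13 were above background on 2 or 3 arrays and SLC16A12 on 1.

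**Figure D4:**
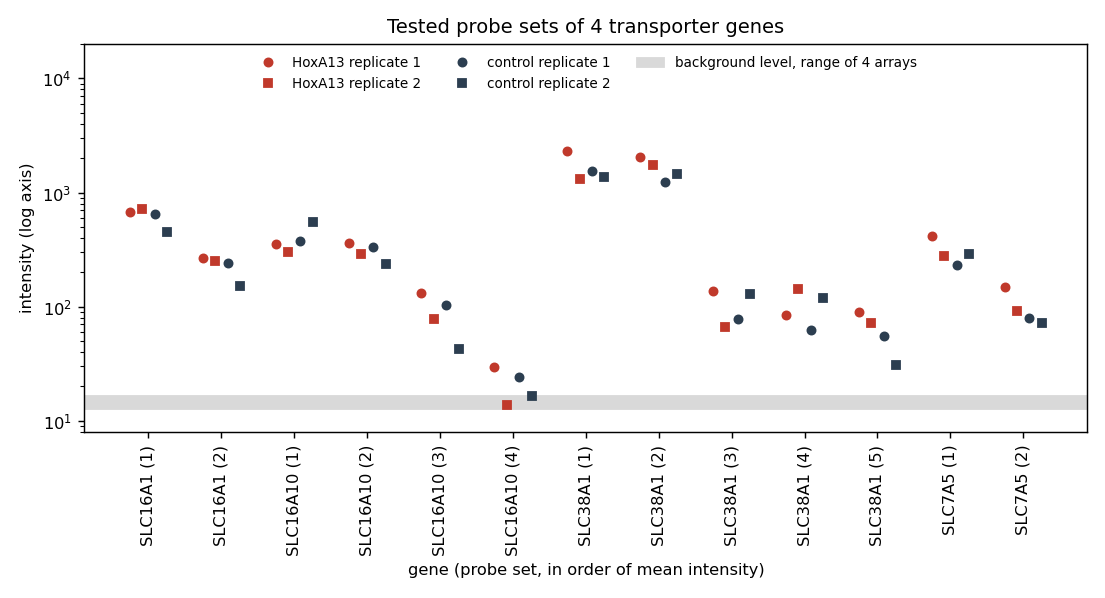
Intensity (log axis) on each of the 4 arrays for every tested probe set of SLC16A1, SLC16A10, SLC38A1 and SLC7A5, with the range of background levels in grey. HoxA13 arrays are red and controls dark, circles are replicate 1 and squares replicate 2, and the order of the arrays changes between probe sets of SLC16A10 and of SLC38A1.

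Partners of the lactate carriers were measured too. BSG, or basigin, and EMB, or embigin, are membrane proteins that bring SLC16A1 and its relatives to the cell surface, and NPTN is their relative. BSG was 2324 and 2999 on the HoxA13 arrays and 2354 and 2520 on the controls, which overlap. EMB was 150 and 84.1 against 217 and 152, both HoxA13 values below both controls by a narrow margin, at a difference of -0.62 ± 0.34 (adjusted p = 0.996, limma). NPTN was 724 and 654 against 806 and 822, at -0.24 ± 0.21. None of the 3 passed.

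The transporter gene with the smallest p-values belongs to the sodium-coupled carriers of glutamine and small neutral amino acids. SLC38A1, or SNAT1, which takes up glutamine, had 5 tested probe sets. The probe set with the highest mean gave 2308 and 1324 on the HoxA13 arrays and 1528 and 1364 on the controls, which overlap, at a difference of 0.27 ± 0.25. A second gave 2047 and 1749 against 1240 and 1461, with no overlap, at 0.49 ± 0.18 (95% confidence interval 0.07 to 0.90, adjusted p = 0.867, limma). The probe set with the next smallest p gave 90.3 and 71.3 against 55.0 and 30.6, at 0.75, the largest difference among the transporters (adjusted p = 0.956, limma). The other probe sets overlapped, at 83.8 and 143 against 62.7 and 119, and at 137 and 66.3 against 77.7 and 128, the last with a difference of -0.052. The 2 without overlap are the ones that had an unadjusted p under 0.05.

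SLC38A2, or SNAT2, a related carrier that responds to amino acid shortage, lies next to SLC38A1 in the RefSeq gene table, with SLC38A4 on its other side. SLC38A2 was 384 and 279 on the HoxA13 arrays and 390 and 385 on the controls. HoxA13 replicate 2 stood below 3 nearly equal arrays, at a difference of -0.23 ± 0.26, the opposite sign to its neighbour. SLC38A4 was below background on all arrays. SLC38A10 was 614 and 676 against 395 and 566, both HoxA13 values above both controls, and did not pass. SLC38A9, a lysosomal protein that reports arginine to the growth regulator mTORC1, was 14.6 and 15.5 against 0.995 and 12.2, close to background on the HoxA13 arrays and below it on the controls. SLC38A6 was above background on 3 arrays and SLC38A3 on 1.

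SLC1 and SLC6 add further sodium-coupled carriers. SLC1A4, or ASCT1, which carries alanine, serine and cysteine, was 539 and 395 on the HoxA13 arrays and 403 and 451 on the controls, at a difference of 0.11 ± 0.26. Its second probe set was 214 and 161 against 97.3 and 210, also with overlap. The glutamate carrier genes of the same family were dim. SLC1A2, the SLC1 gene with the smallest p, was 20.8 and 9.35 against 16 and 1.88, above background on both arrays numbered 1 only, at 0.35 ± 0.37. SLC1A3 and SLC1A7 exceeded background on 1 array each, SLC1A3 on a control and SLC1A7 on a HoxA13 array.

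SLC6A15, a carrier of branched-chain amino acids and proline known from the brain, was 697 and 520 on the HoxA13 arrays and 494 and 730 on the controls. HoxA13 replicate 1 and control replicate 2 were the high arrays and the group means nearly met. SLC6A6, the taurine carrier, was 34.9 and 41.3 against 18.7 and 48.2, at a difference of 0.19 ± 0.35. SLC6A9, or GLYT1, which takes up glycine, was 31.9 and 27.6 against 16.5 and 38.5, at 0.12 ± 0.32. For both of these genes the controls enclosed the HoxA13 values, with control replicate 1 lowest. SLC6A7, a proline carrier of the brain, was 11.5 and 19.0 against 15.5 and 2.70, at 0.35 ± 0.35, the smallest p of the SLC6 family (adjusted p = 0.999, limma). SLC6A12 exceeded background on HoxA13 arrays only, each in a different probe set.

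Among the SLC7 exchangers was SLC7A5, or LAT1, which brings in leucine and other large neutral amino acids. It gave 412 and 276 on the HoxA13 arrays and 233 and 287 on the controls, which overlap, at a difference of 0.36 ± 0.29. Its second probe set gave 148 and 92.2 against 79.7 and 71.4, both HoxA13 values above both controls, at 0.54 ± 0.31 with an interval from -0.16 to 1.24 (adjusted p = 0.999, limma). HoxA13 replicate 1 was the highest array on both. SLC7A6, a relative that exchanges cationic for neutral amino acids, was 303 and 249 against 259 and 272, with overlap.

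Carriers of arginine and lysine belong to the same family. SLC7A3, or CAT3, was 404 and 348 on the HoxA13 arrays and 244 and 384 on the controls, at a difference of 0.28 ± 0.29, and control replicate 1 was below the other 3 arrays. Its other tested probe sets were near background and pointed the other way, at -0.23 and -0.22. SLC7A2 was 19.6 and 17.6 against 24.1 and 38.2, both HoxA13 values below both controls, little above background. SLC7A4, a relative of unproven transport, was 34.8 and 32.5 against 20.0 and 42.9. SLC7A1, the widespread carrier of the group, exceeded background only on control replicate 1, at 18.6, and SLC7A7 only on HoxA13 replicate 1, at 19.3.

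Among the proton-coupled SLC36 carriers, SLC36A4 was 27.5 and 23.3 on the HoxA13 arrays and 43.9 and 44.3 on the controls. Both HoxA13 pools were below both controls with little spread inside each group, and the difference of -0.54 ± 0.28, with an interval from -1.16 to 0.08, did not pass (adjusted p = 0.996, limma). It was the lowest difference of the 54. SLC36A1, which exports amino acids from the lysosome, was 26.2 and 71.9 against 47.0 and 38.1, at 0.06 ± 0.38. HoxA13 replicate 1 was its lowest array and HoxA13 replicate 2 its highest. Its other tested probe sets gave -0.38 and -0.39.

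Both SLC43 genes had replicates close to each other. SLC43A2, or LAT4, a facilitative carrier of large neutral amino acids, was 45.4 and 42.4 on the HoxA13 arrays and 59.5 and 56.0 on the controls, at a difference of -0.30 ± 0.28. SLC43A3, which is known to carry purine bases, was 23.9 and 22.2 against 34.3 and 34.7, at -0.37 ± 0.27. Both genes were lower on each HoxA13 array than on each control, and neither passed (adjusted p = 0.999 each, limma).

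**Figure D5:**
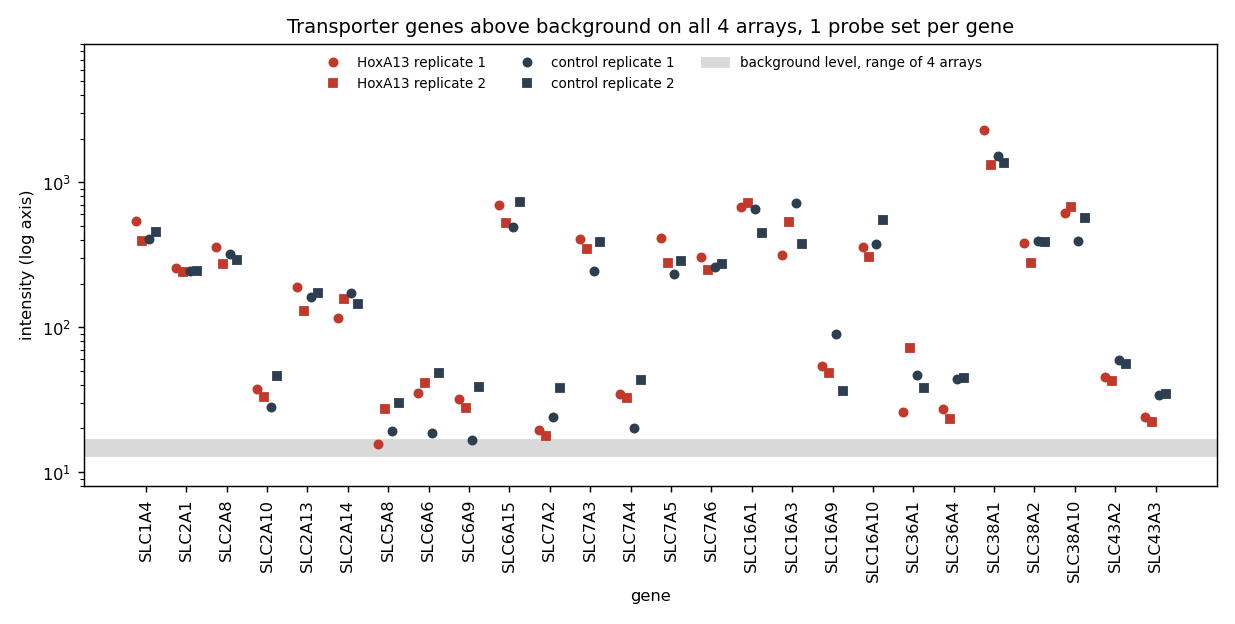
Intensity (log axis) on each of the 4 arrays for the 26 transporter genes above background on all of them, with the probe set of highest mean for each gene and the range of background levels in grey. HoxA13 arrays are red and controls dark, circles are replicate 1 and squares replicate 2, and for most genes the colours overlap.

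Genes that use or sense the transported molecules gave no calls either. Counts here are of 1 probe set per gene, that with the highest mean. Over all probe sets tested 0.0822% passed, and the groups did not overlap for 18.3% higher and 14.7% lower. Of 16 tested enzymes of glycolysis and lactate 0 passed, with 4 higher and 2 lower on both HoxA13 arrays and a median difference of 0.07. The enolase gene ENO2, at 65.3 and 40.4 against 83.1 and 93.2, and PDK1, a kinase that turns pyruvate away from the mitochondria, at 532 and 589 against 777 and 704, had the smallest p-values. Of 11 tested genes of the response to amino acid shortage 0 passed, with 3 higher, 0 lower and a median of -0.02. DDIT4, a stress-induced inhibitor of mTORC1, was 17.5 and 34.4 against 7.73 and 8, above background on the HoxA13 arrays only, through which it came to be tested, and PHGDH, which starts serine synthesis, was 44.7 and 42.7 against 25.1 and 22.8 (adjusted p = 0.875 and 0.966, limma).

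Of 13 tested genes of mTORC1 and its amino acid sensing 0 passed, with a median difference of 0.20. The groups did not overlap for 4 higher and 0 lower, against 18.3% and 14.7% of all probe sets tested. SESN1, which holds mTORC1 back when leucine is short, was 495 and 586 on the HoxA13 arrays and 333 and 380 on the controls (adjusted p = 0.93, limma), and EIF4EBP1, an mTORC1 target that restrains translation, was 872 and 801 against 785 and 578. Of 7 tested regulators of glucose uptake 0 passed, with a median of -0.19. AKT1 was 16.6 and 19.4 against 14.9 and 6.51 and the insulin receptor gene INSR 61.6 and 97.2 against 115 and 89.8. Of the sodium pump, which keeps up the gradient for the coupled carriers, 3 of 7 listed genes were measured. They were ATP1B1, ATP1B3 and ATP1B4, and no ATP1A gene was among them. ATP1B3 was 1247 and 1168 against 1476 and 1223. ATP1B1 followed the replicate number, with 75.5 and 23.0 against 80.8 and 16.9.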

How the data were processed

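Expression was measured in 4 samples, 2 per group, on a chicken Affymetrix array. The authors deposited a table with 1 linear intensity for each probe set and array. Before hybridisation the RNA was amplified in 2 rounds (labels' protocols), a step that favours the 3′ ends of transcripts. R 2.12.1 is the only tool in the submitters' processing notes, and no source used here gives the summary method, background correction or scaling. Array medians over chicken probe sets were 9.48 to 10.0, and 37.8% to 42.7% of them were above background.

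Gene names came from the platform annotation, which can be old. It gave 1 symbol to 27168 chicken probe sets, several to 177 and none to 10350. Of the 77 transporter genes 74 were found in a RefSeq table by Entrez number, with 0 symbols changed. Of the 188 probe sets 64 carry the suffix of sets that may match more than 1 transcript.

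The fit was limma 3.58.1 in R 4.3.3 (lmFit, eBayes with trend and robust estimation) on log2(intensity + 16), over the 15818 chicken probe sets that exceeded background on 2 or more arrays, two-sided, with Benjamini-Hochberg adjustment. It was tested on simulated data, with the same spread for every probe set and changes larger than any transporter difference here. That test does not show whether a change of transporter size would be found. An exact permutation test of a single gene could not give a p below 0.333 with 2 arrays against 2. The number of arrays limits the precision. The members, lists, fit and naming rule were chosen with earlier results of these data known. The naming rule took members that passed, genes whose probe set of highest mean differed at least 1.5-fold with groups that do not overlap, well known carriers fixed by name, and the smallest p of each family; the first and second parts named 0 genes. Values of other members found on all arrays are given by detection. From each of the other gene lists the rule took genes that passed and the 2 with the smallest p. Genes outside the rule (LDHA, BSG, the cell type markers named and the carriers described only by detection) were chosen after their values were seen. The p-values set the group difference against the spread between pools of the same group only, which eBayes moderated over all probe sets tested. Other offsets, filters, priors, scalings, the replicate block and leaving out each array were tried.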

Additional observations from a re-analysis of the deposited data

How the results depend on the processing

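No transporter probe set passed under any of the 9 alternative settings that kept all 4 arrays, where 1 to 11 had an unadjusted p under 0.05. The 11 were of 188 without a filter, an offset or a moderated trend. The share of all probe sets under that setting is not given here. Over all probe sets the counts moved. They were 0 higher and 2 lower with no offset, 0 and 1 with no background filter, 0 and 1 with plain eBayes, and 0 and 0 with these 3 together. Leaving out 1 array gave 0 to 23 higher and 5 to 58 lower. With the replicate number as a block they were 53 and 107, or 1.01% of probe sets. Under the block 0 transporters passed, 3 of 54 had an unadjusted p under 0.05 against 10.1% of all, and the smallest adjusted p was 0.174. The labels tie the number to no shared day, though deviations of equal-numbered arrays from their group means correlated at 0.30 across 15818 probe sets, and all 27 hybridisation spike-ins were brighter on both replicate 2 arrays. The median transporter difference ran from -0.093 to 0.16 with 1 array left out (lowest without HoxA13 replicate 1, highest without HoxA13 replicate 2). With the 95th percentile as background, 31 genes were above it on all arrays, against 26. Among those added were SLC2A9 and SLC5A11, which the main setting found on no array.

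The filter, the prior and the block leave a difference as it is, but the offset changes it. With no offset SLC1A2 went from 0.35 to 1.35, SLC5A5 from 0.46 to 1.29 and SLC6A7 from 0.35 to 1.19. The named SLC2A10 probe set went from -0.29 to -0.61 and SLC3A1 from -0.10 to -0.29. These probe sets are dim. The SLC38A1 probe set of highest mean only went from 0.27 to 0.28, and SLC36A1 became smaller, from 0.062 to 0.037. Of the named probe sets, SLC2A1 turned to -0.020 with quantile normalisation and -0.022 with median scaling. Leaving out 1 array turned the sign of 11 of the 23 named probe sets. Their ranges were -0.017 to 0.060 for SLC2A1, -0.79 to 0.13 for SLC16A3, -0.10 to 0.33 for SLC1A4 and -0.035 to 0.59 for SLC7A3. For the SLC38A1 probe set of highest mean the range was -0.12 to 0.67. It was -0.25 to 0.64 for SLC6A6, -0.25 to 0.49 for SLC6A9 and -0.47 to 0.59 for SLC36A1. The rest were -0.066 to 0.77 for SLC1A2, -0.30 to 0.10 for SLC3A1 and -0.025 to 0.73 for SLC6A7. Others kept their sign but moved by over 1.5 times, from -0.40 to -0.0061 for SLC2A14 and 0.11 to 0.63 for SLC16A1. The SLC7A5 probe sets of this kind ran from 0.088 to 0.64 and 0.24 to 0.84, and SLC38A2 from -0.45 to -0.014. SLC2A10 ran from -0.53 to -0.053, SLC5A5 from 0.21 to 0.71 and SLC16A10 from -0.72 to -0.18. The remaining named probe sets kept their sign and moved less. The SLC38A1 probe set with the smallest p ran from 0.37 to 0.60. SLC36A4 ran from -0.61 to -0.47, SLC43A2 from -0.34 to -0.27 and SLC43A3 from -0.40 to -0.34. Other tested probe sets of a gene had the opposite sign to the one of highest mean, at 0.091 for SLC2A14 and -0.23 and -0.22 for SLC7A3. So it was at -0.052 for SLC38A1, -0.38 and -0.39 for SLC36A1, and 0.18, 0.49 and 0.027 for SLC16A10. SLC6A15 had -0.047 on its second tested probe set, against 0.0044 on the one of highest mean. The cause was not tested in any of these. Intensities near 16 limit what could be seen, since the background level of an array was 12.8 to 16.5.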

Other observations

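Some genes of amino acid supply had the same pair of arrays high, 1 from each group. SLC6A15 (697 and 520 on the HoxA13 arrays, 494 and 730 on the controls), SLC1A4 (539 and 395, 403 and 451) and the asparagine synthetase gene ASNS (605 and 355, 397 and 540) were all higher on HoxA13 replicate 1 and control replicate 2 than on the other arrays. CHAC1, which breaks down glutathione and is induced by amino acid shortage, was 104 and 37.1 on the HoxA13 arrays and 30.6 and 136 on the controls, with the same arrays high. SLC16A3 and LDHA, of lactate export and production, had those same arrays low. HoxA13 replicate 1 and control replicate 2 were also the high arrays for PSPH, of serine synthesis. It was 158 and 34.9 on the HoxA13 arrays and 33.3 and 60.2 on the controls. The probe sets of highest mean of SLC7A3, SLC7A5 and SLC7A6 had the same arrays high. Some other genes of amino acid supply did not share the pattern. PSAT1, of serine synthesis, was 1627 and 649 on the HoxA13 arrays and 1173 and 935 on the controls. PHGDH was 44.7 and 42.7 against 25.1 and 22.8, and the SLC38A1 probe set of highest mean 2308 and 1324 against 1528 and 1364. These genes were picked after their values were seen, and the pattern was not tested.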
